A study of Mus musculus with 18 samples.

Results

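The organic ion and ABC transporters of the liver were followed in RNA of 18 male mice. They were taken as all genes whose symbol places them in the Slc22, Slco, Abcb, Abcc or Abcg family, without the bile salt pump Abcb11 and the sterol pumps Abcg5 and Abcg8, which belong to bile acid and sterol transport. Of 62 such symbols, 6 (Abcb5, Slc22a6, Slc22a16, Slc22a20, Slco4c1 and Slco6c1) were listed at 0 in each mouse, and the other 56, out of 20071 genes above 0 in at least 1 mouse, are described here. They comprise 22 Slc22, 12 Slco, 8 Abcb, 10 Abcc and 4 Abcg genes. The 4 groups were FF mice on a control diet (CD, n = 4), LKO mice on CD (n = 4), FF mice on a high-fat diet (HFD, n = 5) and LKO mice on HFD (n = 5). FF mice carry floxed copies of Ppp6r3, which encodes SAPS3, a regulatory subunit of protein phosphatase 6. LKO mice were bred from FF mice and an Alb-Cre line on C57BL/6, in which the albumin promoter drives Cre in hepatocytes, so they differ from FF mice by the deletion and by the presence of Cre, and the labels list no control with Cre alone. CD held 10% and HFD 32.5% of its calories as fat, and each was given for 16 weeks from 8 weeks of age.

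Hepatocytes take up drugs, hormones, bile pigments and other organic ions from the blood through carriers of the Slc22 and Slco families, which span the membrane and need no ATP of their own. Pumps of the Abcb, Abcc and Abcg families use ATP to push substrates out, into bile through the canalicular membrane or back into blood through the sinusoidal membrane, and several Abcb proteins work in mitochondria or lysosomes instead. The nuclear receptors PXR (Nr1i2) and CAR (Nr1i3) are known inducers of several of these genes, and in male mice the growth hormone pattern keeps a set of them, with Slco1a1 as a known example, at male levels.

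Values are RPKM, read counts scaled to gene length and sequencing depth, so that levels may be compared between genes. Depth was 23.4 to 37.0 M reads per mouse, and 1 read for a gene of median length corresponds to 0.0111 RPKM. A gene was tested when its mean over the 18 mice was at least 0.5 RPKM, which 33 of the 56 transporters reached. All of these reached it in at least 2 of the 4 groups, and 28 in each group. Fold changes are given as log2 differences on log2(RPKM + 1), a scale that understates the change of genes near or below 1 RPKM. Such genes can miss the fold threshold on this scale while their means differ more than 1.5-fold. The ratio of mean RPKM is given too for those that were called and for some that were not. A gene was called changed with a fold change above 1.5 and an adjusted p under 0.05 (limma, two-sided, Benjamini-Hochberg adjustment over 11090 genes). Ppp6r3 was at 8.38 to 10.98 RPKM in FF CD, 7.55 to 8.82 in FF HFD, 3.88 to 4.08 in LKO CD and 4.22 to 4.87 in LKO HFD livers. Each mouse thus matched the genotype in its label, while the diet in the label cannot be checked with this gene. The 5 hepatocyte markers (summed RPKM 29841 to 47681 per mouse) marked the tissue as liver, and 4 kidney tubule markers summed to at most 0.0303 RPKM.

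The highest level was that of an uptake carrier. Slco1b2, which encodes OATP1B2, the main hepatic carrier of bilirubin, statins and other organic anions, was at 292 RPKM in FF CD, 304 in LKO CD, 297 in FF HFD and 282 in LKO HFD mice, and no comparison called it. Among the pumps the highest mean was that of Abcb4, the phosphatidylcholine floppase of the canaliculus, and next came Abcg2 (BCRP), Abcc3 (MRP3) and Abcc2 (MRP2). Abcc3 on the sinusoidal side exceeded Abcc2 on the canalicular side in FF HFD mice (51.4 against 29.9 RPKM) and lay below it in FF CD mice (12.0 against 29.3). In all, 26 of the 56 transporters had a mean of at least 1 RPKM and 16 a mean of at least 10, while the 23 below the filter had means of at most 0.462, among them Abcc4 (0.156 to 0.254 RPKM in FF CD and 0.256 to 0.501 in FF HFD mice). The known kidney carriers Slc22a8, Slc22a12 and Slc22a2 were above 0 in few mice and at no more than 0.0338 RPKM.

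**Figure D1:**
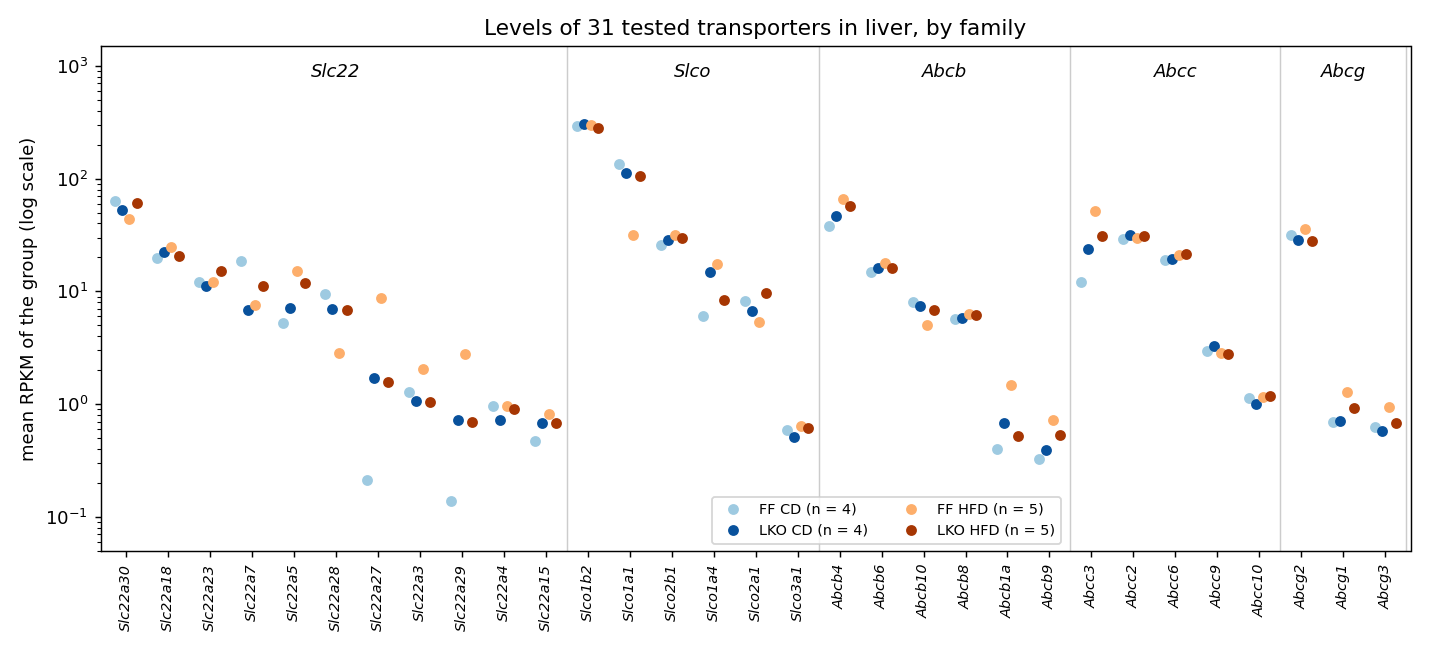
Mean RPKM in each of the 4 groups (log scale) for 31 of the 33 tested transporters, ordered within the Slc22, Slco, Abcb, Abcc and Abcg families by their mean over all mice. Slco1b2 lies between 282 and 304 RPKM in each group, whereas the points of Slc22a27 and Slc22a29 span more than 10-fold, with FF CD lowest and FF HFD highest.

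Between the diets 10 of the 33 transporters differed in FF mice: 7 rose with HFD (Slc22a27, Abcc3, Slc22a29, Slc22a5, Slco1a4, Abcb1a and Abcb4) and 3 fell (Slco1a1, Slc22a28 and Slc22a7). Over all tested genes 6.6% were called in this comparison, 5.11% upward and 1.49% downward. The median log2 difference was 0.19 over the 33 transporters and 0.07 over all genes. The split of higher against lower calls was 7 to 5 after centring each mouse on its median, with Abcb10 and Slc22a30 added to the genes that fell, and 12 to 3 with limma voom on estimated reads. Over all genes the split was 410 to 236 after centring and 1682 to 167 with voom, against 567 to 165 with the values as deposited. Rescaling to the same sum and voom shifted the median log2 difference of all genes to 0.14 and 0.23, against 0.07 with the values as deposited. In whole liver, fewer cells of a type and less RNA per cell cannot be told apart. Values of FF CD and FF HFD mice did not overlap for 12 of the 33 (18.3% of all genes), and these were the called genes other than Slco1a4 plus Abcb9, Abcg1 and Slc22a15. In LKO mice 1 transporter, Slc22a5, was called between the diets (1.27% of all genes, and 0.965% upward), and 2 of 33, Slc22a5 and Slc22a23, did not overlap (9.04% of all genes). By adjusted p alone, with no fold threshold, 16 transporters differed in FF mice (20.6% of all genes) and 2 in LKO mice (4.05%). Over the 10 genes called in FF mice, which were chosen by the FF difference, the median size of the log2 difference was 1.41 in FF and 0.21 in LKO mice, and the larger size in FF mice is in part set by that choice.

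**Figure D2:**
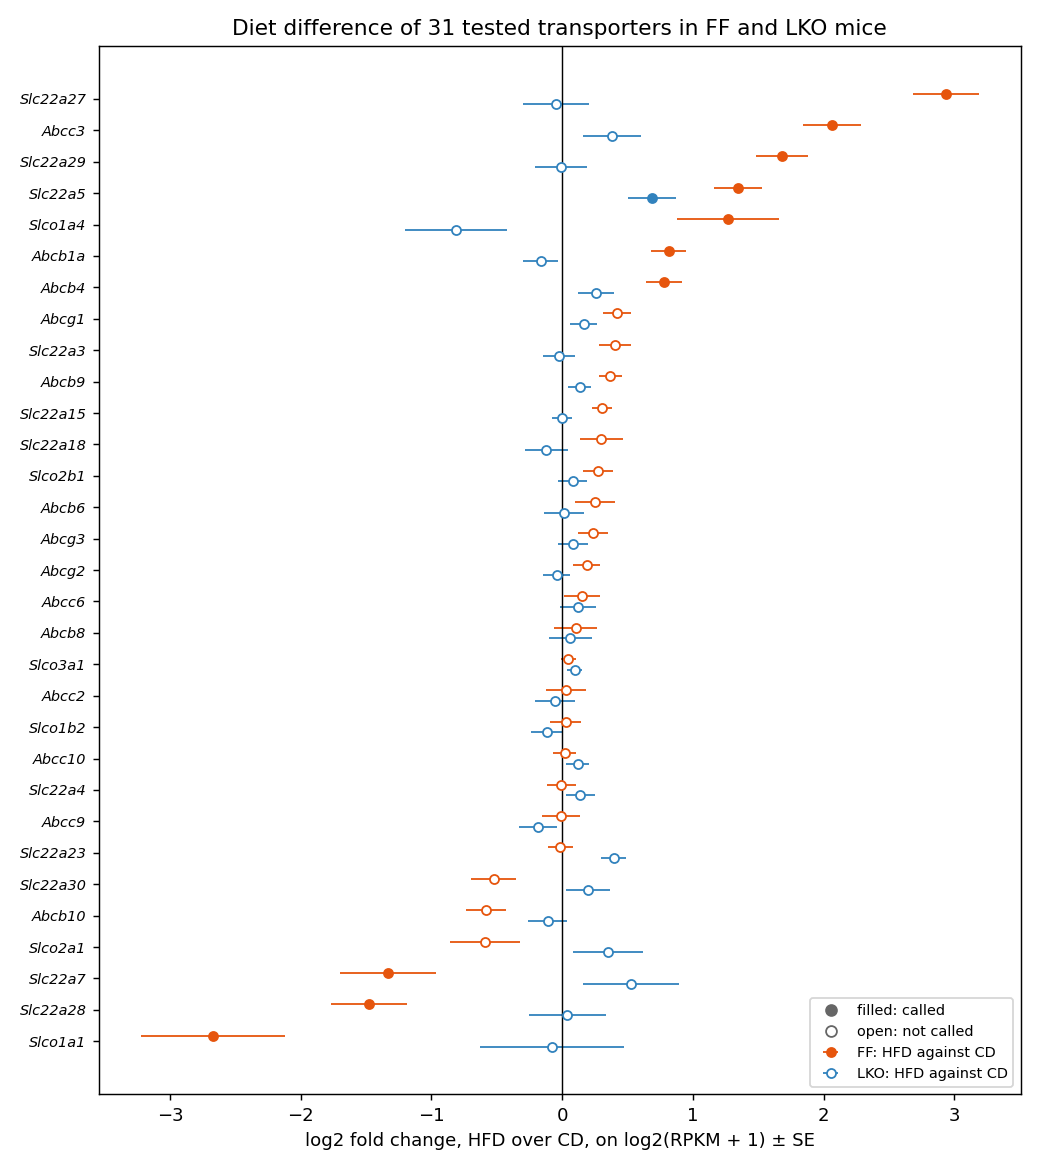
Log2 fold change of HFD over CD (on log2(RPKM + 1), ± SE from limma) for 31 of the 33 tested transporters in FF mice (orange, 4 CD and 5 HFD) and LKO mice (blue, 4 CD and 5 HFD), ordered by the FF value. Filled points were called changed, which are 10 in FF mice, from −2.67 (Slco1a1) to 2.93 (Slc22a27), and 1 in LKO mice (Slc22a5, 0.69).

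Slc22 genes that encode organic anion carriers moved in opposite directions. A run of 6 of them, Slc22a19, Slc22a26, Slc22a27, Slc22a28, Slc22a29 and Slc22a30, lies on the minus strand of chromosome 19 (GRCm38), followed by Slc22a8 and Slc22a6 on the plus strand, and the whole cluster covers 955 kb. The cluster spans chr19:7673061-8628299. Slc22a19 was above 0 in 1 mouse, and the other 5 were above 0 in each group. Slc22a27 and Slc22a29 were called higher and Slc22a28 lower with HFD in FF mice. The 250 bases before the start of each of these 5 genes (RefSeq, GRCm38.p6, minus strand, printed 5′ to 3′) are shown because genes of this run moved in opposite directions. Those of Slc22a28 and Slc22a30 are nearly the same. Slc22a30 was lower with HFD in FF mice but was not called, as it stayed below the fold threshold. The window of Slc22a29, which was called higher, shares 73.2% with that of Slc22a28. Whether the upstream sequence has a part in these changes was not tested.
Slc22a26, chr19:7802668-7802917: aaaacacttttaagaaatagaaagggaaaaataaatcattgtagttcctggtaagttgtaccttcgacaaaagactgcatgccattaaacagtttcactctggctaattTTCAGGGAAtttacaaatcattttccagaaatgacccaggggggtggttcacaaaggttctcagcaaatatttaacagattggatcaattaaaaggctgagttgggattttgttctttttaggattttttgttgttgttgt
Slc22a27, chr19:7966028-7966277: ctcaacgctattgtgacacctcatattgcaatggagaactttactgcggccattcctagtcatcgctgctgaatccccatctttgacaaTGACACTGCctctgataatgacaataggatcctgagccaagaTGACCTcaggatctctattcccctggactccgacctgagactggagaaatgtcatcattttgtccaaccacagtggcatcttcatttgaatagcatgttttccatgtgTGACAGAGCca
Slc22a29, chr19:8218901-8219150: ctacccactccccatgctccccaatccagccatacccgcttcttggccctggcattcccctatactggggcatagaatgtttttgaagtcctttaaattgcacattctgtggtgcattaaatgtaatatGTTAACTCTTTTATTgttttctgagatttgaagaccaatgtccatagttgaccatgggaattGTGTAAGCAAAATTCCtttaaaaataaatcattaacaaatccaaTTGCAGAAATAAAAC
Slc22a28, chr19:8131983-8132232: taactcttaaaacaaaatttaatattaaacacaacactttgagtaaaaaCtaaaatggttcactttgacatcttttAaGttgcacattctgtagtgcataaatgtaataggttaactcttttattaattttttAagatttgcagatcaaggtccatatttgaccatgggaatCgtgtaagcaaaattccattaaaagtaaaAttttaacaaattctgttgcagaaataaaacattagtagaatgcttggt
Slc22a30, chr19:8405106-8405355: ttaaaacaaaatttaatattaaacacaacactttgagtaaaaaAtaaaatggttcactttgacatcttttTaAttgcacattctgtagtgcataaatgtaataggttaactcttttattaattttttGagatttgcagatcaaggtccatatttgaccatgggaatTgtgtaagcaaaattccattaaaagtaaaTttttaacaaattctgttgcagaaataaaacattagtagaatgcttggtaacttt
In Slc22a28 and Slc22a30 the capitals mark the 6 bases that differ between them. Their windows align over 244 bases without a gap. In Slc22a29 the capitals mark the 3 runs of at least 15 bases that are identical to Slc22a28 in an alignment with free end gaps. With end gaps penalized, the windows of Slc22a28 and Slc22a29 shared 183 of 250 bases (73.2%). The windows of Slc22a29 and Slc22a30 shared 72.8%. The other 25 pairs among 8 transporter windows compared shared 45.2% to 64.0%, and the windows of Slc22a27 and Slc22a29 were at 58.8%. Capitals in Slc22a26 mark a match of the STAT motif TTCNNNGAA at −141 from the start, and those in Slc22a27 mark 2 matches of the antioxidant response element core TGACNNNGC (−161 and −11) and 1 of the nuclear receptor element AGGTCA on the other strand (−119). These matches do not overlap each other. Both strands were searched, and of all 32851 promoter windows of this length 7.02% held the first, 10.2% the second and 14.02% the third motif. The AHR core GCGTG, held by 28.2% of all windows, was in none of these 5, and 2 matches were found for Slc22a5.

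Slc22a27 had the largest log2 difference of the 33 transporters between the diets in FF mice. It was at 0.210, 0.284, 0.0690 and 0.295 RPKM in the FF CD mice (in the order of the replicate numbers, here and below) and at 5.72, 15.4, 9.57, 6.01 and 7.32 in the FF HFD mice. The LKO CD mice had 0.832, 2.21, 1.06 and 2.71 and the LKO HFD mice 2.14, 2.26, 1.65, 0.907 and 0.917. FF CD mice were thus lowest, FF HFD mice highest, and both LKO groups lay between them, overlapping each other. The ratio of mean RPKM between FF HFD and FF CD was 41.1 (log2 difference 2.93 ± 0.25 (SE), adjusted p = 1.02e-06), with an estimated 2.63 to 12.2 reads per FF CD mouse, 1 of the 4 being below 3 reads. With a pseudocount of 0.1 the log2 difference was 4.80. No diet difference was called in LKO mice (-0.05 ± 0.25 (SE), adjusted p = 0.94). LKO HFD mice were below FF HFD mice (-1.88 ± 0.24 (SE), adjusted p = 1.82e-04) and above FF CD mice (1.05 ± 0.25 (SE), adjusted p = 0.0152).

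Slc22a29 followed the same order at a lower level. Its RPKM was 0.171, 0.144, 0.0911 and 0.149 in FF CD and 2.58, 4.68, 2.24, 1.68 and 2.67 in FF HFD mice. Among LKO mice it was 0.326, 0.614, 0.452 and 1.497 on CD and 0.861, 0.876, 1.06, 0.406 and 0.241 on HFD. The FF groups did not overlap, and the ratio of their means was 19.9 (log2 difference 1.68 ± 0.20 (SE), adjusted p = 2.41e-05, or 3.52 with a pseudocount of 0.1). Under HFD the LKO mice were lower than the FF mice (-1.14 ± 0.19 (SE), adjusted p = 0.00203), again without overlap. Slc22a26 was below the filter and is named after its values were seen: it was at 0.0932, 0.0199, 0.0852 and 0.0393 RPKM in FF CD mice and 0.715, 1.05, 0.456, 0.521 and 0.613 in FF HFD mice, from 1 to 6 reads per FF CD mouse. Its LKO mice lay at 0.0740 to 0.385 on CD and 0.197 to 0.742 on HFD. With no filter on low values it was called in FF mice (0.65 ± 0.11 (SE), adjusted p = 0.00209).

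Slc22a28, in contrast, fell with HFD in FF mice. FF CD mice had 12.8, 10.2, 8.84 and 5.94 RPKM and FF HFD mice 4.16, 1.23, 1.57, 3.48 and 3.83, without overlap, and the mean was 3.31-fold lower (log2 difference -1.48 ± 0.29 (SE), adjusted p = 0.0019). LKO mice had 5.07, 5.56, 12.9 and 4.61 on CD and 7.41, 7.47, 9.33, 5.01 and 5.03 on HFD, and their diet difference was near 0 (0.04 ± 0.29 (SE)). Each LKO HFD mouse was above each FF HFD mouse (1.08 ± 0.28 (SE), adjusted p = 0.0367), a call that was lost without FF HFD replicate 2 or 3 or LKO HFD replicate 2 or 3 (adjusted p = 0.103, 0.0865, 0.0681 and 0.107), with no filter (0.0759) and with no moderation (0.0744). Slc22a30, the most abundant gene of the run, was at 44.2 to 83.1 RPKM in FF CD and 31.3 to 55.3 in FF HFD mice. Its difference did not reach the fold threshold (-0.53 ± 0.17 (SE), adjusted p = 0.0356). In LKO mice it lay at 44.6 to 67.1 on CD and 53.0 to 66.6 on HFD (0.20 ± 0.17 (SE), adjusted p = 0.53).

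Reads of these genes may not be fully separable. Of the 50-base windows of the Slc22a28 transcript, 53.9% also occur in a transcript of another gene, nearly all of them in Slc22a30, and for Slc22a27 and Slc22a29 the share was 30.5% each, most of it between this pair. How reads that match several genes were counted is not given in the sources used here. The values of Slc22a27, Slc22a28, Slc22a29 and Slc22a30 did not resolve into whole reads, unlike those of Slc22a26. This was not particular to genes with shared windows. Of the transporters, 21 did not resolve, among them Abcc3, Abcg2 and Slco2b1, which share no 50-base window with another gene. The share of each level of these Slc22 genes that belongs to a neighbour was not tested.

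**Figure D3:**
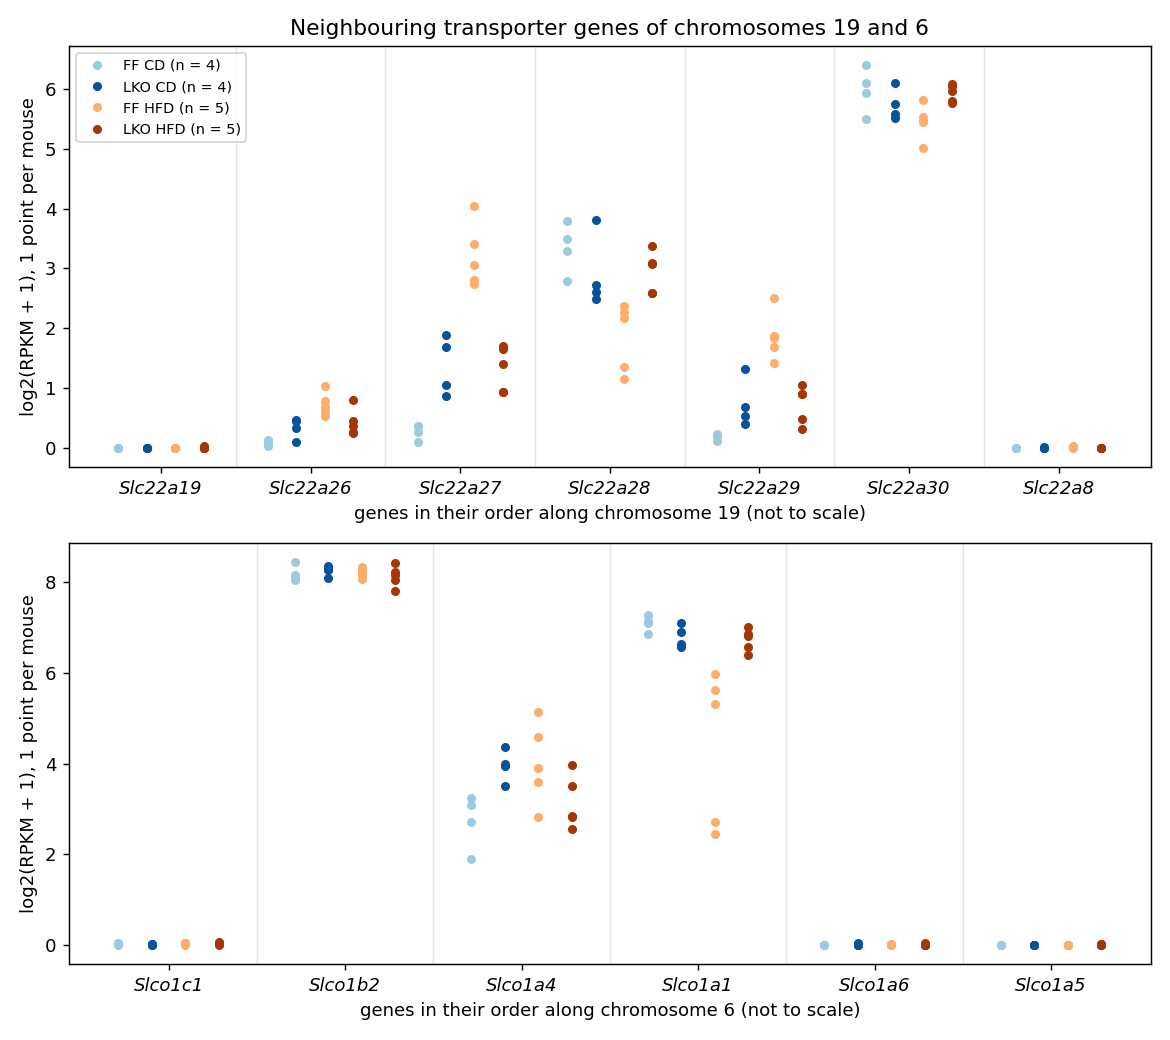
Log2(RPKM + 1) of each mouse for 7 Slc22 genes in their order along chromosome 19 (top) and 6 Slco genes along chromosome 6 (bottom), coloured by group. On chromosome 19, FF HFD mice lie above FF CD mice for Slc22a27 and Slc22a29 and below them for Slc22a28, and on chromosome 6 Slco1a1 is low in the FF HFD mice while Slco1b2 differs little between groups.

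Slc22a7, which encodes the organic anion carrier OAT2 and lies elsewhere (chr17:46432183-46438457, GRCm38), also fell with HFD in FF mice. It was at 17.8, 22.8, 13.5 and 20.8 RPKM in FF CD and 12.7, 3.77, 3.23, 6.45 and 12.1 in FF HFD mice, without overlap (log2 difference -1.33 ± 0.37 (SE), adjusted p = 0.0154). LKO mice on CD were at 10.0, 6.05, 5.79 and 5.56 and those on HFD at 14.5, 14.3, 8.57, 3.82 and 14.2. All 4 LKO CD mice were below all 4 FF CD mice, a difference of -1.34 ± 0.39 (SE), adjusted p = 0.22, which did not pass. The difference between the diet effects of the genotypes was 1.86 ± 0.52 (SE), adjusted p = 0.0611, and it passed after rescaling, quantile normalization, limma voom and the replicate block.

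Among the organic cation and carnitine carriers, Slc22a5, which encodes the carnitine carrier OCTN2, rose with HFD in both genotypes (chr11:53864542-53891660, GRCm38). FF mice had 5.75, 5.46, 4.51 and 5.28 RPKM on CD and 14.9, 17.2, 11.1, 18.1 and 13.7 on HFD, a ratio of means of 2.86 (log2 difference 1.34 ± 0.18 (SE), adjusted p = 9.10e-05). LKO mice had 6.39, 7.86, 4.51 and 9.47 on CD and 9.97, 9.55, 16.3, 13.9 and 9.73 on HFD, a ratio of 1.69 (0.69 ± 0.18 (SE), adjusted p = 0.0418). HFD values exceeded all CD values in each genotype. The LKO call was lost without LKO CD replicate 1, 2 or 3, LKO HFD replicate 3 or 4, or FF HFD replicate 2, with adjusted p between 0.0510 and 0.143, and with no filter, centring, only these groups or no moderation (adjusted p = 0.0892, 0.0517, 0.10 and 0.0761). The difference between the 2 diet effects did not pass (-0.66 ± 0.26 (SE), adjusted p = 0.20). In its transcript 27.2% of 50-base windows occur elsewhere, mainly in the neighbouring carnitine carrier gene Slc22a21, which was at 0.0938 to 0.249 RPKM in FF CD and 0.0781 to 0.327 in FF HFD mice. Slc22a3, Slc22a4 and Slc22a15, of the same role, were not called in any of the 6 comparisons. Slc22a3, encoding OCT3 and named after its values were seen, was lower in LKO HFD than in FF HFD mice without overlap. The log2 difference was just under the fold threshold (-0.58 ± 0.11 (SE), adjusted p = 0.00811), and the mean was 1.96-fold lower. Slc22a15, below 1 RPKM and also named after its values were seen, was higher in FF HFD than in FF CD mice without overlap. Its ratio of means was 1.73 (log2 difference 0.30 ± 0.08 (SE), adjusted p = 0.00816). Of the remaining tested Slc22 genes, Slc22a18 and Slc22a23 were not called, and Slc22a23, also named after its values were seen, was at 10.4 to 12.0 RPKM in LKO CD and 12.7 to 17.4 in LKO HFD mice (0.39 ± 0.09 (SE), adjusted p = 0.0323), below the fold threshold.

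Slco1a1 showed the largest fall of the Slco family. This gene encodes OATP1A1, a male-predominant carrier of steroid conjugates and other organic anions, and it lies at chr6:141907282-141946962 (GRCm38) between Slco1a4 and Slco1a6, in a run of 6 Slco1 genes. FF CD mice were at 154, 140.2, 135 and 114 RPKM and FF HFD mice at 48.4, 4.47, 5.52, 62.2 and 38.9, so replicates 2 and 3 were far below the other 3 mice of their group. LKO mice were at 136, 94.7, 119 and 98.4 on CD and 115, 93.9, 128, 111 and 83.1 on HFD. Every FF HFD mouse was below every mouse of the other 3 groups. The mean of FF HFD mice was 4.26-fold below that of FF CD mice (log2 difference -2.67 ± 0.55 (SE), adjusted p = 0.00246), and LKO mice showed no called diet difference (-0.08 ± 0.55 (SE), adjusted p = 0.95). LKO HFD mice exceeded FF HFD mice 3.33-fold (2.31 ± 0.52 (SE), adjusted p = 0.0181), and this call was lost without LKO HFD replicate 3 (adjusted p = 0.0515), in a fit of only these groups (0.0833) and with no moderation (0.0521). The difference between the diet effects, 2.59 ± 0.78 (SE), did not pass (adjusted p = 0.0859), and it did without FF HFD replicate 1 or 4. The 250 bases before its start are given because of the size of this fall.
Slco1a1, chr6:141946963-141947212: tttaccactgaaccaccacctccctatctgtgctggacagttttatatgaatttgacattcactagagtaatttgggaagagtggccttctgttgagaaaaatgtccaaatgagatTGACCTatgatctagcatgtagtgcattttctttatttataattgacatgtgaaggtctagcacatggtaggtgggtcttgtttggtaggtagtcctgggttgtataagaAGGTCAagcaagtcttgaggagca
The sequence is from RefSeq (GRCm38.p6, minus strand, 5′ to 3′), and the capitals mark 2 matches of AGGTCA, at −134 on the other strand and at −24. None of the other 3 motifs was matched in this window.

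Slco1a4, the neighbour that encodes OATP1A4, a carrier of bile acids and digoxin, moved the other way in FF mice. FF CD mice had 5.59, 2.71, 7.57 and 8.50 RPKM and FF HFD mice 11.1, 34.1, 6.12, 23.0 and 13.9, which overlap (1.27 ± 0.39 (SE), adjusted p = 0.0276). LKO mice had 15.02, 14.5, 10.3 and 19.7 on CD and 10.4, 14.7, 6.22, 4.89 and 6.08 on HFD, so that the LKO CD mice were above all FF CD mice and the LKO HFD mice were lower on average than the LKO CD mice (-0.81 ± 0.39 (SE), adjusted p = 0.23). The diet effects of the genotypes differed (-2.08 ± 0.55 (SE), adjusted p = 0.0488). Both calls were close to the threshold. The FF call was lost without FF CD replicate 1 or 2 or FF HFD replicate 2 or 4 (adjusted p = 0.0553, 0.102, 0.0764 and 0.0701), with no filter (0.0582), in a fit of only these groups (0.0592) and with no moderation (0.0575). The difference between genotypes was lost in 12 of 18 fits that left out a mouse, with adjusted p up to 0.118, and with no filter, no moderation or the replicate block (adjusted p = 0.12, 0.11 and 0.0616). It passed without FF CD replicate 4, LKO CD replicate 3, FF HFD replicate 1 or 3, or LKO HFD replicate 1 or 2.
The other tested Slco genes were not called in any comparison. Slco2b1 was at 25.9 to 31.7 RPKM over the group means, and Slco2a1, encoding the prostaglandin carrier, was at 6.45 to 9.58 in FF CD and 3.10 to 7.47 in FF HFD mice (-0.59 ± 0.27 (SE), adjusted p = 0.13), in this comparison the value nearest to the p threshold from outside among transporters past the fold threshold. From inside, Slco1a4, at an adjusted p of 0.0276, was nearest in the same comparison.

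**Figure D4:**
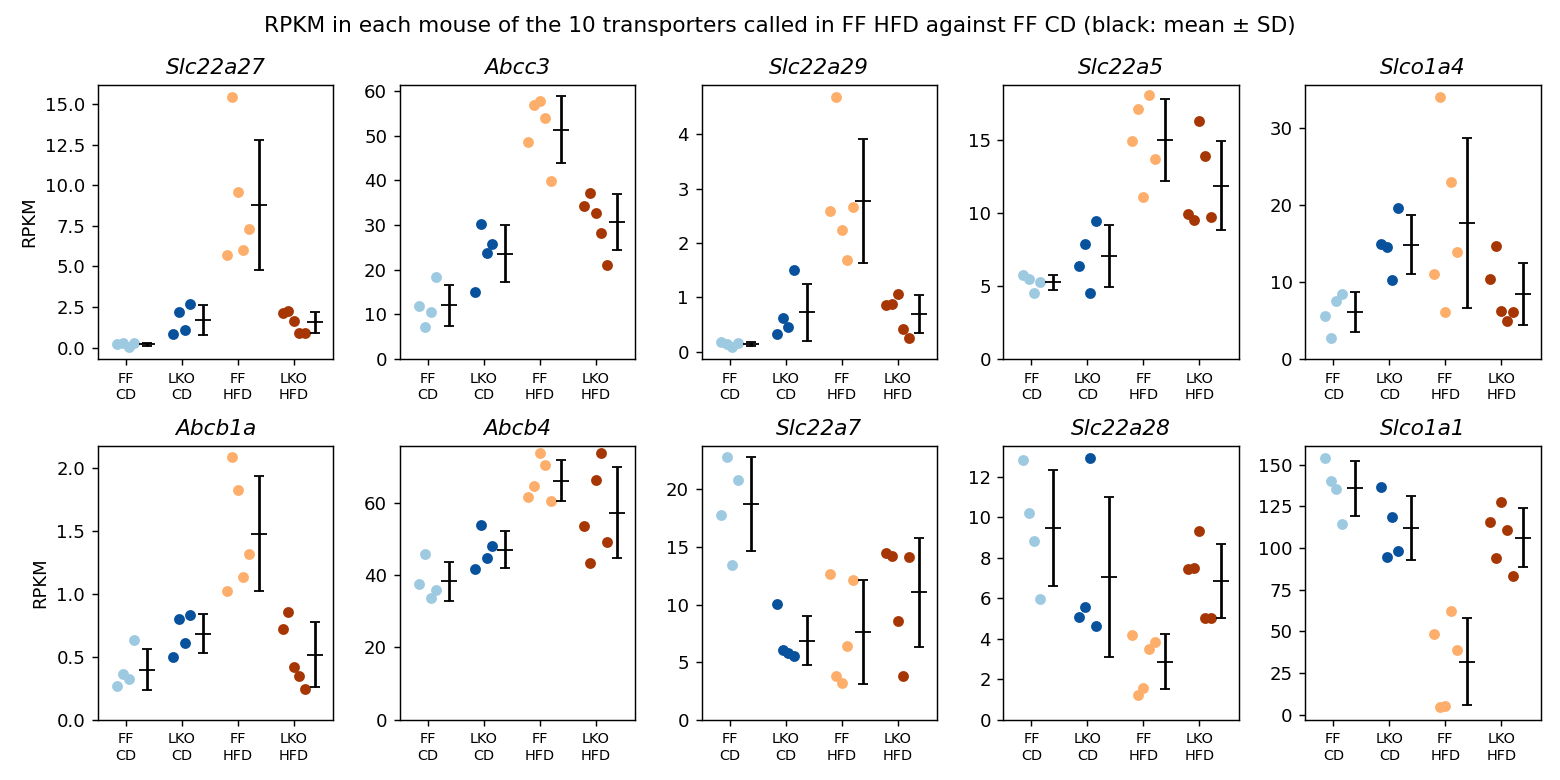
RPKM of each mouse, with the mean ± SD of its group in black, for the 10 transporters called between FF HFD and FF CD, from the largest rise (Slc22a27) to the largest fall (Slco1a1). For Slc22a27, Slc22a29 and Slco1a1 the LKO HFD mice lie apart from the FF HFD mice, whereas for Slc22a5 and Abcb4 they overlap them.

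Of the efflux pumps of the plasma membrane, 3 rose in FF mice. Abcc3 (MRP3), which returns glucuronides and bile acids to the blood, lies at chr11:94343295-94392997 (GRCm38) and was at 11.9, 7.19, 10.6 and 18.4 RPKM in FF CD and 48.6, 56.8, 57.9, 53.9 and 39.8 in FF HFD mice, a ratio of means of 4.28 (log2 difference 2.07 ± 0.22 (SE), adjusted p = 8.79e-06). LKO mice had 14.9, 30.2, 23.7 and 25.7 on CD and 34.3, 37.2, 32.6, 28.3 and 21.1 on HFD. FF HFD mice lay above every mouse of the other groups, and the LKO diet difference was not called (0.38 ± 0.22 (SE), adjusted p = 0.33). The diet effects differed between genotypes (-1.69 ± 0.31 (SE), adjusted p = 0.00558). LKO HFD mice remained above FF CD mice (1.33 ± 0.22 (SE), adjusted p = 0.00259), and their difference from FF HFD mice missed the threshold (-0.74 ± 0.21 (SE), adjusted p = 0.0543). It passed after rescaling to the same sum and after centring on the median, and since Slc22a3 was also called under both settings, the split under HFD was then 2 higher and 5 lower in place of 2 and 3. Over all genes the split was 83 and 167 after rescaling and 87 and 158 after centring, in place of 100 and 130. None of the 50-base windows of Abcc3 occurs in another gene.

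Abcb1a, which encodes a P-glycoprotein, was low but shifted in the same way. FF CD mice had 0.273, 0.361, 0.325 and 0.638 RPKM and FF HFD mice 1.026, 2.09, 1.83, 1.14 and 1.32, without overlap (0.81 ± 0.13 (SE), adjusted p = 4.79e-04), and the ratio of means was 3.71. The log2 difference was 1.67 with a pseudocount of 0.1. LKO mice had 0.498, 0.800, 0.613 and 0.832 on CD and 0.723, 0.860, 0.418, 0.345 and 0.245 on HFD, and each LKO HFD mouse was below each FF HFD mouse (-0.71 ± 0.13 (SE), adjusted p = 0.00408). The diet effects differed between genotypes (-0.98 ± 0.19 (SE), adjusted p = 0.00778). With a filter at a mean of 1 RPKM Abcb1a was not tested. Its close copy Abcb1b, with which it shares 15.5% of its 50-base windows, was below the filter at 0.206 to 0.430 RPKM in FF CD and 0.0771 to 0.190 in FF HFD mice.
Abcb4, next to them on chromosome 5, was at 37.5, 45.9, 33.6 and 36.0 RPKM in FF CD and 61.5, 64.6, 73.6, 70.4 and 60.5 in FF HFD mice, a ratio of 1.73 without overlap (0.78 ± 0.14 (SE), adjusted p = 7.72e-04). In LKO mice it was 41.8, 53.7, 44.6 and 48.0 on CD and 53.6, 43.3, 66.3, 73.7 and 49.2 on HFD, and these groups overlap (0.26 ± 0.14 (SE), adjusted p = 0.28). The difference between diet effects did not pass (-0.52 ± 0.19 (SE), adjusted p = 0.17). Among the transporters called between FF HFD and FF CD, Abcb4 was nearest to the fold threshold.

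The genes of the ABCB proteins of organelles were not called by this rule in any comparison, 0 of 5. Abcb9, near or below 1 RPKM and named after its values were seen, was still higher in FF HFD than in FF CD mice without overlap. Its ratio of means was 2.21 (log2 difference 0.37 ± 0.09 (SE), adjusted p = 0.00613). It was called with a pseudocount of 0.1 and with limma voom on estimated reads. Abcb10, of the mitochondrial inner membrane, came nearest to the fold threshold from outside between the diets in FF mice, at 5.50 to 8.96 RPKM in FF CD and 3.39 to 6.14 in FF HFD mice (-0.58 ± 0.15 (SE), adjusted p = 0.0104), a fold of 1.498. Abcb6 was at 11.5 to 18.3 RPKM in FF CD and 12.8 to 22.6 in FF HFD mice, but 90.3% of its transcript windows are shared with an overlapping gene model. Of the ABCC pumps other than Abcc3, Abcc2 (0.03 ± 0.15 (SE) in FF mice), Abcc6 (0.15 ± 0.14 (SE)) and Abcc10 (0.02 ± 0.09 (SE)) were not called in any comparison, and neither was Abcc9, a regulator of potassium channels. Of the 3 tested ABCG genes none was called. Abcg2, the canalicular pump of urate and many drugs, was at 34.2, 37.0, 34.6, 35.8 and 36.7 RPKM in FF HFD and 33.6, 27.2, 26.7, 28.0 and 24.8 in LKO HFD mice, without overlap (-0.34 ± 0.10 (SE), adjusted p = 0.0532). Abcg1, which exports sterols and is also expressed in macrophages, was at 0.528 to 0.884 in FF CD and 0.916 to 1.60 in FF HFD mice, without overlap. Its log2 difference was below the fold threshold (0.42 ± 0.11 (SE), adjusted p = 0.00937), while the ratio of means was 1.83, and it was called with a pseudocount of 0.1. Abcg3 was at 0.474 to 0.910 in FF CD and 0.473 to 1.36 in FF HFD mice.

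On CD no transporter was called between LKO and FF mice by limma (0 of 33, with 0.225% of all genes called, 0.0902% upward and 0.135% downward). An unadjusted p under 0.05 was found for 6 of 33 transporters and for 851 of all 11090 genes. Limma voom on estimated reads called 0 as well, and a pseudocount of 0.1 called Slc22a27 and a fit of only these 2 groups Slc22a7. The values of the 2 groups nevertheless did not overlap for 4 of 33 (5.07% of all genes): Slc22a27, Slc22a29 and Slco1a4 were higher and Slc22a7 lower in LKO CD mice, and for each the LKO CD mice were on the side of the FF CD range to which FF HFD mice also moved. Their log2 differences were 1.10, 0.55, 1.22 and -1.34 (adjusted p = 0.11, 0.47, 0.36 and 0.22). The count was 1, with Abcc3 or Slc22a27 called, without FF CD replicate 4, LKO CD replicate 1 or FF HFD replicate 2.

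Under HFD 5 transporters differed between LKO and FF mice (2.07% of all genes), of which Slco1a1 and Slc22a28 were higher in LKO mice (0.902% of all genes) and Slc22a27, Slc22a29 and Abcb1a lower (1.17%). Each of the 5 was also called between the diets in FF mice, in the opposite direction, but both comparisons use the same 5 FF HFD mice and are not independent. Without LKO HFD replicate 3 the count was 3. Groups did not overlap for 8 of 33 (4.67% of all genes), adding Abcc3, Abcg2 and Slc22a3. Compared with FF CD mice, LKO HFD mice had 3 transporters higher, Abcc3, Slc22a27 and Slc22a5, and none lower (3.17% of all genes, 2.37% upward and 0.803% downward), and 5 without LKO HFD replicate 5. Their values did not overlap for 5 of 33 (10.9% of all genes). The test of the difference between the diet effects called 5 (2.44%, with 0.947% positive and 1.5% negative), all with a smaller or opposite change in LKO mice: Slc22a27 (-2.98 ± 0.36 (SE), adjusted p = 1.46e-04), Slc22a29 (-1.69 ± 0.28 (SE), adjusted p = 0.0027), Abcc3, Abcb1a and Slco1a4. This test also uses the CD mice, and for each of the 5 genes the LKO CD mean was above the FF CD mean. With other scalings the split of higher and lower values changed from 0 and 5 to 3 and 5 (rescaled to the same sum, and quantile normalization), 1 and 5 (centring) or 2 and 7 (voom). Slc22a28 was among the positive ones in each of these fits. Over all genes the split was 112 and 299 after rescaling, 139 and 205 with quantile normalization, 116 and 203 after centring and 114 and 528 with voom. With the values as deposited it was 105 and 166.

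Within the FF HFD group the mice were not alike. FF HFD replicate 2 had the lowest Slco1a1 and Slc22a28 and the highest Slc22a27, Slc22a29, Abcb1a and Slco1a4, and FF HFD replicate 3 was next to it for Slco1a1, Slc22a28, Slc22a27 and Abcb1a but had the lowest Slco1a4. These 2 mice also had the highest summed RPKM of cholangiocyte markers in their group, 61.5 and 54.0 against 17.5 to 27.2 in the other 3, and of stellate markers, 99.9 and 97.0 against 67.4 to 78.4. Their part in the transporter values was not tested. LKO HFD replicates 2 and 1 had the highest cholangiocyte markers (65.9 and 43.3) and stellate markers (90.9 and 97.0) of their group. Replicate 2 had the highest and replicate 1 the next highest Slc22a27, Abcb1a, Abcc3 and Slco1a4 among LKO HFD mice. For Slc22a29, Slco1a1 and Slc22a28, LKO HFD replicate 3 was highest, and replicate 2 had 93.9 RPKM of Slco1a1 and 7.47 of Slc22a28. The part of these markers in the LKO HFD values was not tested either.

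Markers of other cell types moved with the diet as well. The summed RPKM of 5 endothelial markers was 12.4 to 25.9 in FF CD and 32.7 to 52.5 in FF HFD mice, with 4 of 5 called higher (Pecam1, Cdh5, Clec4g and Lyve1), against 10.1 to 27.3 in LKO CD and 26.0 to 34.7 in LKO HFD mice, with 0 of 5 called. Kupffer cell markers summed to 38.5 to 56.0 in FF CD and 47.2 to 88.8 in FF HFD mice (2 of 5 called), and to 32.1 to 52.6 and 45.2 to 88.5 in LKO CD and LKO HFD mice. Stellate markers summed to 55.8 to 80.1 in FF CD and 67.4 to 99.9 in FF HFD mice (1 of 5 called, Col1a1, which was also lower in LKO HFD than in FF HFD mice), and to 56.0 to 92.5 and 49.3 to 97.0 in the LKO groups. In LKO mice 1 Kupffer cell marker, Clec4f, was called higher with HFD. Of 5 hepatocyte markers 2, Cps1 and Apoa1, were called lower in FF HFD mice, and their sum, led by the other genes, was 29841 to 37972 in FF CD and 33427 to 42890 in FF HFD mice. Lymphocyte markers summed to at most 4.01 RPKM, and adipocyte markers to 0 in all CD mice and at most 1.13 in HFD mice. The part of these changes in the transporter values was not tested.

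Among 15 genes that work beside these carriers and pumps, such as partners in bile formation, 14 were tested, and none was called in FF mice between the diets. Slc10a1, which encodes the bile acid carrier NTCP, was lower in LKO HFD than in LKO CD mice (202 to 307 against 336 to 428 RPKM, log2 difference -0.67 ± 0.14 (SE), adjusted p = 0.0229) and than in FF CD mice (-0.71 ± 0.14 (SE), adjusted p = 0.00688), and in FF mice it stayed below the fold threshold (-0.53 ± 0.14 (SE), adjusted p = 0.0138). Of 15 known regulators of transporter genes, 14 were tested. Nr1i3 (CAR) rose with HFD in FF mice, with 25.5 to 41.3 RPKM on CD and 54.6 to 83.1 on HFD (0.99 ± 0.17 (SE), adjusted p = 7.46e-04), and was called higher in LKO HFD than in FF CD mice (0.75 ± 0.17 (SE), adjusted p = 0.0118), with 44.0 to 62.7 in LKO CD and 43.8 to 78.8 in LKO HFD mice (0.18 ± 0.17 (SE), adjusted p = 0.56). Nr1i2 (PXR) differed in its response to diet between the genotypes (-0.67 ± 0.15 (SE), adjusted p = 0.0228), at 19.1 to 25.6 in FF CD, 24.0 to 37.6 in FF HFD, 25.9 to 28.8 in LKO CD and 21.5 to 24.5 in LKO HFD mice. Bcl6, a repressor that is male-predominant in liver, fell in FF HFD mice (-1.02 ± 0.32 (SE), adjusted p = 0.0313), with 7.53 to 15.1 RPKM on CD and 3.21 to 7.16 on HFD and no overlap, while LKO mice had 3.05 to 10.8 on CD and 5.01 to 14.999 on HFD (0.65 ± 0.32 (SE), adjusted p = 0.24). Cux2, known as a female-predominant factor, stayed at or below 0.120 RPKM in each mouse, under the filter. The other regulators, with Ppara, Nfe2l2, Ahr and Stat5b among them, were not called in any comparison.

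Summed over a family, the levels shifted little in the Slc22 family, from 244.6 ± 48.8 (SD, n = 4) in FF CD to 275 ± 40.2 (SD, n = 5) in FF HFD mice. The Slco sum was 469 ± 52.4 in FF CD, 467 ± 34.8 in LKO CD, 384 ± 47.4 in FF HFD and 437 ± 62.7 in LKO HFD mice, and the share of Slco1a1 in it was 29.0%, 23.9%, 7.93% and 24.3% in the same order. The Abcc sum was 65.1 ± 11.8, 79.7 ± 7.38, 108 ± 11.8 and 88.0 ± 10.996, of which Abcc3 made up 17.99%, 29.3%, 47.5% and 34.7%. These sums were not tested.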

How the data were processed

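RNA of 18 livers was measured, and the authors deposited 1 table per mouse with RPKM for 25266 gene symbols. According to the submitters' processing notes, reads were aligned with HISAT2 2.0.4 to mm10 and handled in Partek. Samples numbered within a group were taken as separate mice; the labels do not state this, and were they not, p-values would measure technical spread. The labels name Trizol extraction and a TruSeq Small RNA protocol beside standard RNA-seq. How multi-mapping reads were counted is not given in the sources used here. Depth per mouse, 23.4 to 37.0 M reads, was recovered from the steps between low values, and whole reads came out for 8496 (76.6%) of the tested genes; the other reads were estimated from annotated length.

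The values were tested as log2(RPKM + 1) with limma 3.58.1 (R 4.3.3, eBayes with trend), with 1 coefficient per group and all 18 mice, over 11090 genes with a mean of at least 0.5 RPKM. Comparisons were made between diets, between genotypes, of LKO HFD with FF CD mice and of the diet effects. Tests were two-sided, with Benjamini-Hochberg adjustment within each comparison. The method was tested on simulated data. Tables were read with Python 3.11.15, pandas 2.3.3 and biopython 1.88. Gene coordinates are those of GENCODE for GRCm38, and upstream sequences are from RefSeq, where 43 of the 56 transporters were matched.

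The transporters, companion genes, regulators and marker lists were chosen with earlier results of these data known. Named are transporters called in any comparison, the 3 with the highest mean in each family, well known hepatic transporters, called companions and regulators, and the transporters nearest to each threshold, except 2 that are not reported here but enter the counts. The alternatives were other pseudocounts, filters and scalings, fits of only the groups compared, no variance moderation, voom on estimated reads, the replicate number as a block, no fold threshold, and leaving out each mouse.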

Additional observations from a re-analysis of the deposited data

Results flagged for a closer look

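The diet effects of LKO and FF mice differed for 5 transporters by the test of that difference (limma, 5 LKO HFD, 4 LKO CD, 5 FF HFD and 4 FF CD mice). On the log2 scale the LKO effect minus the FF effect was -2.98 for Slc22a27, -2.08 for Slco1a4, -1.69 for Slc22a29, -1.69 for Abcc3 and -0.98 for Abcb1a. Both an FF rise with HFD and an LKO CD mean above the FF CD mean enter these values.

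In 92 groups of 23 named transporters, 3 mice stood apart from the rest of their group by Dixon's test. Chance gives about 1 in 20 groups, so these are no more than chance would give. FF HFD replicate 3 had 40.4 RPKM of Abcc2, against 25.4 to 29.4 in the other 4 mice. LKO CD replicate 3 had 12.9 RPKM of Slc22a28, against 4.61 to 5.56 in the other 3. LKO CD replicate 1 had 10.0433 RPKM of Slc22a7, against 5.56 to 6.05 in the other 3.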

How the results depend on the processing

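No value reversed. Of 256 values of the called differences under other settings 242 stayed past the threshold and 14 did not, and of 432 without a mouse 405 did and 27 did not. Counts called over all tested genes follow in brackets, out of 11090, or 11020 with voom and 20071 with no filter. Between FF diets the count was 10 (all genes: 732). With a pseudocount of 0.1 it was 15, 11 higher and 4 lower (1254), with Abcb10, Abcb9, Abcg1, Slc22a15 and Slc22a3 added. It was 15 with voom (1849), and 16, 11 higher and 5 lower, by adjusted p alone (2287). Between LKO diets it was 1 (all genes: 141), but 0 with no filter (47), centring (88), only the groups compared (40) or no moderation (53). By adjusted p alone it was 2 (449). Between genotypes on CD it was 0 (all genes: 25), and 1 with a pseudocount of 0.1 (31) or only the groups compared (31). Under HFD it was 5 (all genes: 230), 3 with no moderation (145), and 7 after rescaling to the same sum (250) or centring (245). Between LKO HFD and FF CD it was 3 (all genes: 352), and 7 with voom (1054). For the diet effects it was 5 (all genes: 271), and 8 after rescaling to the same sum (411), 8 with quantile normalization (344) and 9 with voom (642). Without 1 mouse the counts ranged from 9 to 12, 0 to 1, 0 to 1, 3 to 7, 3 to 5 and 4 to 8 in this order. Over all genes these ranges were 605 to 802, 17 to 237, 11 to 45, 132 to 318, 231 to 397 and 156 to 392. The causes were not tested. The labels state no pairing by replicate number, and the main fit used none. Same-numbered mice of different groups had a median correlation of 0.054 (10 of 25 over 0.1). For mice with other numbers it was -0.012 (26 of 96 over 0.1), and the difference was not tested. The replicate block gave 5 transporters between LKO HFD and FF CD (all genes: 400), adding Abcb4 and Slc22a7. For the diet effects it gave 1 higher and 4 lower (all genes: 107 and 187), with Slc22a7 gained and Slco1a4 lost. The difference of diet effects needs all groups, so it could not be fitted on fewer. Depth limits Slc22a26, Slc22a27 and Slc22a29 in FF CD mice, with few reads each.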
